A study of Mus musculus with 8 samples.

Results

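Endothelial identity and angiopoietin genes are described here in 4 mouse models of endometrial cancer. They are 10 of the 24419 gene symbols in the count table, taken as named symbols with earlier results of these data known. They comprise the junction and surface genes Cdh5, Pecam1, Esam and Emcn, the receptors Tie1, Tek, Eng and Robo4, and the ligands Angpt1 and Angpt2. Each model gave 2 libraries. All models began as uterus organoids of CAG-Cas9-EGFP mice that carried sgRNAs, one of them against Trp53, and were transplanted into the uterus of nude mice. TPM also overexpressed Myc, TPMCa (TPMPik3ca in the labels) carried Pik3ca E545K cDNA on top of the TPM edits, TPMR1 (TPMPik3r1 in the labels) carried an sgRNA against Pik3r1 on top of them, and TPK carried an introduced oncogene cDNA and no Myc. According to the methods, RNA came from the tumors of mice killed some 2 months later, but the labels name tumor organoids as the tissue. Such a tumor can hold cells of the nude host and of the transplant, and the libraries do not separate their RNA. The study counts each library as a separate mouse, although the labels name no mouse.

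Blood vessels are lined by endothelial cells, which hold together through VE-cadherin, the product of Cdh5, and carry PECAM1 at their contacts. The receptor TEK, also called TIE2, is activated by ANGPT1, which pericytes and other mesenchymal cells release to keep vessels quiet. ANGPT2, stored and released by endothelial cells of growing or activated vessels, competes with ANGPT1 for TEK in many settings. TIE1 is a partner receptor of TEK without a well-defined ligand of its own. Endoglin, encoded by Eng, is a co-receptor for BMP9 and BMP10, and ROBO4 is an endothelial receptor of the Roundabout family.

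The members lay at separate places of the genome, in GRCm38 coordinates of the GENCODE M21 annotation. Cdh5 lay on chromosome 8 from 104101625 to 104144511 and Angpt2 on the same chromosome from 18690263 to 18741562. Tek on chromosome 4 from 94739289 to 94874976 and Tie1 on that chromosome from 118471191 to 118490061 stood 23596214 bases apart. Robo4 and Esam were near neighbors on chromosome 9, from 37401897 to 37415115 and from 37528078 to 37538319, with 112962 bases between them. Pecam1 lay on chromosome 11 from 106654217 to 106750628, Emcn on chromosome 3 from 137341067 to 137432185, Eng on chromosome 2 from 32646595 to 32682669 and Angpt1 on chromosome 15 from 42424723 to 42676977. Angpt2 lay within Mcph1 on the opposite strand and shared 0 exonic bases with it. Angpt1 shared 737 exonic bases, or 14.2% of its exons, with the antisense gene Gm17473, and Eng shared 61 bases, or 1.51%, with Fpgs. Whether the counting used strand is not given in the sources used here, so reads in those shared bases cannot be assigned.

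RefSeq promoters of GRCm38.p6 were matched for 5 of the 10 members: Tek, Tie1, Emcn, Eng and Robo4. The 3 below are shown because Tie1 and Tek, the paired receptors, differed in level among the libraries and Robo4 had the widest range of the endothelial members. Each runs 5′ to 3′ from 250 bases before the start site used by RefSeq to 50 bases after it, a site that for Tie1, Robo4 and Emcn is not the GENCODE gene end given above. Capitals mark the letters GGAA, the core bound by ETS factors such as ERG, on the strand shown, or TTCC where they lie on the other strand.
Tie1, chr4:118489800-118490099, minus strand: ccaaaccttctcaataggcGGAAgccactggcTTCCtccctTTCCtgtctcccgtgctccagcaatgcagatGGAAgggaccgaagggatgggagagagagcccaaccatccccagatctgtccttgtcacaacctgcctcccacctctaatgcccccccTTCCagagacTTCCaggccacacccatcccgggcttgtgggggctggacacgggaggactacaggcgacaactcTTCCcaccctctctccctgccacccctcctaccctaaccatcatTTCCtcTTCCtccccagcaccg
Tek, chr4:94739039-94739338, plus strand: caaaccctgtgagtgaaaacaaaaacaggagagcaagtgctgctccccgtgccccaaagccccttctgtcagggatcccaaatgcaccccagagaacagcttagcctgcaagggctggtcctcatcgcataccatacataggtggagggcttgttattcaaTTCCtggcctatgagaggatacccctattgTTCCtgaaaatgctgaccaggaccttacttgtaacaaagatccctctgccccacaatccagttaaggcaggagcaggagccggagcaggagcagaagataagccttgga
Robo4, chr9:37401722-37402021, plus strand: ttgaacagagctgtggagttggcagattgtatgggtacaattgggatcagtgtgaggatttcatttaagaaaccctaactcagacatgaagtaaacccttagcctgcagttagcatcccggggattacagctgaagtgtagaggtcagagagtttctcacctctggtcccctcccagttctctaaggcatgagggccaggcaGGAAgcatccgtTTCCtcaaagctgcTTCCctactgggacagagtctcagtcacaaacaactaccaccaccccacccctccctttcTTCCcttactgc
Tie1 held 9 matches, Tek 2 and Robo4 4, against a median of 3 over 32851 mouse promoters of the same length, 96% of which held at least one. As many matches as in Tie1 were found in 1.59% of promoters, as many as in Tek in 84.6% and as many as in Robo4 in 46.3%. Emcn held 6 matches, a number reached by 15.7% of promoters, and Eng held 4. The letters CACCC or GGGTG, the core of KLF motifs, were found 3 times in Tie1, once in Tek, 2 times in Robo4, 4 times in Eng and not in Emcn, and 57.5% of promoters held at least one. A match is a run of letters and was not tied to any level below.

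Total counts lay between 15748396 and 26943611 per library, the highest in replicate 1 of TPMR1, and 3 counts, taken as the floor, equaled 0.116 to 0.198 CPM (counts scaled to a common library size with TMM factors), a limit that covers counting error only. All 10 members were among the 15875 genes with enough counts to be tested, and the lowest count of any member was 28, for Tek in replicate 2 of TPK. Markers of other cell types varied among the models. The summed level of 6 epithelial genes lay between 2941 and 5498 CPM in TPM and TPK and between 6.47 and 73.3 CPM in TPMCa and TPMR1. A list of 4 steroid-producing cell genes reached 439 and 5024 CPM in TPMR1 and 22.4 CPM or less elsewhere. The hemoglobin genes Hba-a1 and Hbb-bs had 0 counts in every library, so they could not serve as a measure of blood content.

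Cdh5 was lowest in TPM and TPK and higher in TPMCa and TPMR1. Its levels were 38.6 and 29.6 CPM in TPM, 166 and 186 CPM in TPMCa, 56.7 and 255 CPM in TPMR1, and 44.9 and 13.4 CPM in TPK, where the first value is replicate 1. The libraries of TPMCa and TPMR1 all exceeded those of TPM and TPK, while TPMCa overlapped TPMR1 and TPM overlapped TPK. Means were 176 ± 14.3 (SD, n = 2) CPM in TPMCa, 156 ± 140.2 (SD, n = 2) CPM in TPMR1, 34.1 ± 6.38 (SD, n = 2) CPM in TPM and 29.2 ± 22.3 (SD, n = 2) CPM in TPK.

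Pecam1, an adhesion receptor also carried by platelets and some leukocytes, was at 43.05 and 33.1 CPM in TPM and 129 and 161 CPM in TPMCa, without overlap. It was at 46.1 and 199 CPM in TPMR1 and at 58.4 and 21.8 CPM in TPK. Here replicate 1 of TPMR1 fell between the TPK libraries, so that TPMCa and TPMR1 as a pair overlapped TPM and TPK. Esam, an adhesion molecule of endothelial tight junctions and platelets, was at 13.5 and 13.3 CPM in TPM, 31.7 and 59.4 CPM in TPMCa, 16.1 and 78.3 CPM in TPMR1, and 21.6 and 8.90 CPM in TPK. Of the 7 genes listed for platelets and blood cells, Itga2b lay between 5.23 and 9.51 CPM and Gp9 at 0.396 CPM or less in all libraries, and Ppbp was at 25.3 CPM or more in TPM and TPK and 3.23 CPM or less in TPMCa and TPMR1. Pf4, a platelet gene, was at 8.19 and 1.77 CPM in TPM and 64.7 and 70.0 CPM in TPMCa. The leukocyte gene Ptprc was at 35.5 and 40.3 CPM in TPM and 113 and 196 CPM in TPMCa. Both were thus higher in TPMCa without overlap, as Pecam1 and Esam were. In TPMR1, Pf4 was at 2.25 and 21.6 CPM and Ptprc at 5.38 and 62.4 CPM, so both overlapped TPM. Pecam1 and Esam were above TPM in both TPMR1 libraries. In TPK, Pf4 was at 18.6 and 22.9 CPM and Ptprc at 55.6 and 63.9 CPM. The part of platelets and leukocytes in the levels of Pecam1 and Esam was not tested. Emcn, a sialomucin of venous and capillary endothelium, was at 8.13 and 8.35 CPM in TPM, 25.8 and 29.1 CPM in TPMCa, 19.2 and 55.9 CPM in TPMR1, and 15.4 and 5.999 CPM in TPK. As for Cdh5, every TPMCa and TPMR1 library had more Emcn than every TPM and TPK library.

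Robo4 had the largest range of the endothelial members, 34.2-fold from the lowest to the highest library. It was at 9.39 and 9.72 CPM in TPM, 42.7 and 38.7 CPM in TPMCa, 21.8 and 104 CPM in TPMR1, and 10.7 and 3.03 CPM in TPK. The 4 TPMCa and TPMR1 libraries stood above the 4 others without overlap. Eng had the smallest range, 4.18-fold. It was at 39.7 and 28.8 CPM in TPM, 62.1 and 91.3 CPM in TPMCa, 32.3 and 97.5 CPM in TPMR1, and 64.5 and 23.3 CPM in TPK. TPMCa was above TPM in both libraries, whereas TPMR1 and TPK overlapped every other model.

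Tie1 and Tek, the receptors of the angiopoietin system, had different orders. Tie1 was at 17.2 and 17.6 CPM in TPM, 53.1 and 78.2 CPM in TPMCa, 28.0 and 77.9 CPM in TPMR1, and 21.3 and 6.86 CPM in TPK. Tek was at 4.21 and 4.12 CPM in TPM, 8.23 and 17.3 CPM in TPMCa, 2.87 and 4.56 CPM in TPMR1, and 5.94 and 1.85 CPM in TPK. Tie1 was thus above TPM and TPK in all TPMCa and TPMR1 libraries, whereas Tek was above them in TPMCa only and overlapped TPM and TPK in TPMR1.

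Angpt2 was lowest in TPM, and Angpt1 had no order among the models. Angpt2 was at 6.14 and 6.92 CPM in TPM, 31.2 and 12.7 CPM in TPMCa, 22.6 and 249 CPM in TPMR1, and 19.1 and 9.49 CPM in TPK. Both TPM libraries were below the 6 others, and replicate 2 of TPMR1 stood 8.01-fold above the next library. Angpt1 was at 16.9 and 8.58 CPM in TPM, 13.4 and 18.8 CPM in TPMCa, 4.72 and 29.5 CPM in TPMR1, and 6.40 and 48.6 CPM in TPK. Replicates of TPMR1 differed 6.24-fold and those of TPK 7.59-fold in Angpt1, and no model stood apart from the rest. Mcph1, the gene that contains Angpt2, ranged from 14.6 to 29.6 CPM, a 2.02-fold range against 40.6-fold for Angpt2.

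**Figure D1:**
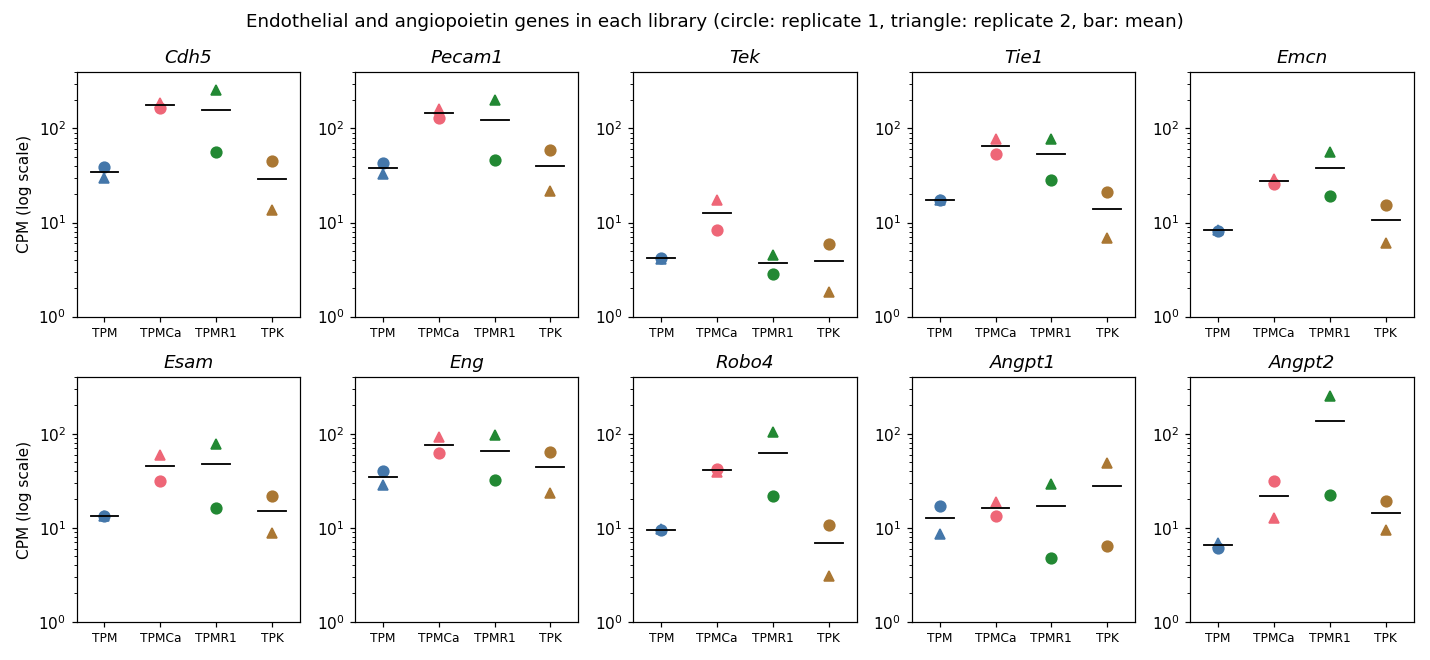
Level of each of the 10 genes in each library, in CPM on a log axis, with circles for replicate 1, triangles for replicate 2 and bars for the mean of each model. Replicates of TPM lie close together, those of TPMR1 and TPK lie far apart, and Cdh5, Tie1, Emcn and Robo4 are above all TPM and TPK libraries in all TPMCa and TPMR1 libraries.

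The replicates themselves set how far these differences can be read. In TPM, 0 of the 10 members were over 2-fold apart between replicates, in TPMCa 2, in TPMR1 9 and in TPK 10. All 10 members were higher in replicate 2 of TPMR1 than in replicate 1. In TPK, 9 of the 10 members were higher in replicate 1, and Angpt1 was the exception. Replicate 2 of TPK was the lowest library for all 8 endothelial members, that is, all members but the angiopoietins, and replicate 2 of TPMR1 was the highest for 6 of them. The 20 other endothelial genes listed below varied alongside, since their geometric mean was 9.0 CPM in replicate 1 and 36.6 CPM in replicate 2 of TPMR1, and 13.5 CPM in replicate 1 and 4.67 CPM in replicate 2 of TPK. In bulk libraries, fewer endothelial cells and less RNA per endothelial cell cannot be told apart.

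Compared per length of exon (FPKM, CPM divided by the kilobases in the union of exons), Cdh5 was the most abundant member in TPMCa, at 41.9 ± 3.40 (SD, n = 2) FPKM, and Tek the least, at 2.71 ± 1.36 (SD, n = 2) FPKM. Pecam1 followed Cdh5 at 23.3 ± 3.64 (SD, n = 2) FPKM and Eng came next at 18.95 ± 5.10 (SD, n = 2) FPKM, and Pecam1 and Eng differed by less than the larger of their SDs. In TPM, Eng at 8.46 ± 1.89 (SD, n = 2) FPKM and Cdh5 at 8.11 ± 1.52 (SD, n = 2) FPKM led and did not differ beyond their spread, and Tek was again last at 0.884 ± 0.0144 (SD, n = 2) FPKM. Angpt2 was 8th of the 10 per length in TPM, at 1.77 ± 0.150 (SD, n = 2) FPKM, and 2nd in TPMR1, at 36.9 ± 43.5 (SD, n = 2) FPKM, a mean carried by replicate 2. Tek was the least abundant member in each of the 4 models.

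TPMCa was compared with TPM to ask what the Pik3ca cDNA adds to the TPM edits. All 10 members had higher fitted levels in TPMCa, with a median log2 fold change of 1.75 against -0.01 over all genes tested. With edgeR, 0 members passed an adjusted p of 0.05, as 3.48% of all tested genes did in either direction. At an unadjusted edgeR p under 0.05 with at least a 2-fold difference, called the 2-fold rule here, 5 members were higher, Cdh5, Pecam1, Tie1, Emcn and Robo4, against 7.28% of all genes. With p-values from DESeq2, the tool of the study, 7 members passed that rule, as 7 did in TPMR1 against TPM. The share of all genes that passed it with those p-values was not computed, and 7.28% holds for edgeR only. In 9 members the TPMCa libraries lay above the TPM libraries without overlap, as 29.1% of all genes did. DESeq2 called 2, Cdh5 and Tie1, and 16% of all genes. The log2 fold change of Cdh5 was 2.37 ± 0.80 (SE, edgeR adjusted p = 0.158), that of Robo4 2.09 ± 0.83 (SE, edgeR adjusted p = 0.207) and that of Tek 1.61 ± 0.73 (SE, edgeR adjusted p = 0.252). Markers of macrophages and fibroblasts were higher in TPMCa too. All 6 epithelial genes were lower at the 2-fold rule, with a median log2 fold change of -6.2. All 4 macrophage genes had a log2 fold change above 0, with a median of 1.97, and 3 passed the 2-fold rule, and all 4 fibroblast genes were above 0, with a median of 1.56 and 0 past that rule. The summed macrophage level was 357 to 780 CPM in TPM and 799 to 3378 CPM in TPMCa, and the summed fibroblast level 1688 to 4629 CPM and 6441 to 12260 CPM, with no list gene at 0. Their part in the levels of the members was not tested.

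TPMR1 was compared with TPM in the same way, for the loss of Pik3r1, and shares the TPM libraries with the comparison above. The median log2 fold change of the members was 1.75, against 0.03 over all genes tested, with 9 above 0 and Tek below it. With edgeR, 0 members passed an adjusted p of 0.05, which 5.58% of genes did. At an unadjusted p under 0.05 and 2-fold, 5 were higher, Cdh5, Tie1, Emcn, Robo4 and Angpt2, against 7.53% of genes. In 7 members the groups did not overlap, with TPMR1 higher, as in 24.5% of genes. DESeq2 called 4, Cdh5, Emcn, Robo4 and Angpt2, and 17.9% of all genes. Angpt2 had the largest log2 fold change of the members, 4.38 ± 1.14 (SE, edgeR adjusted p = 0.0797). That of Robo4 was 2.71 ± 0.85 (SE, edgeR adjusted p = 0.119), and that of Tek was -0.17 ± 0.71 (SE, edgeR adjusted p = 0.918). Without replicate 1 of TPMR1, the log2 fold change was 5.26 for Angpt2 and 3.44 for Robo4. Without replicate 2 of TPMR1, it was 1.79 for Angpt2 and 1.19 for Robo4. Of the marker lists, 1 of 4 macrophage genes and 2 of 4 fibroblast genes were above 0 in TPMR1. Their medians were -0.40 and -0.10. All 6 epithelial genes were lower at the 2-fold rule, with a median of -8.3. The part of these cells in the levels of the members was not tested.

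TPK was compared with TPM, which carries Myc in place of the other introduced cDNA. The median log2 fold change of the members was 0.13, against 0.01 over all genes, with 6 above 0 and 4 below. No member passed an adjusted p of 0.05 from edgeR or DESeq2, and 0 had an unadjusted p under 0.05. Of all genes, 0% passed with edgeR, 1.51% with DESeq2 and 5.28% the unadjusted 2-fold rule. The log2 fold change of Cdh5 was -0.22 ± 0.77 (SE, edgeR adjusted p = 0.971), and that of Angpt2, whose TPK libraries were both above TPM, was 1.13 ± 1.02 (SE, edgeR adjusted p = 0.837). Standard errors of the members lay between 0.63 and 1.10 on the log2 scale here, and differences well beyond that size could also be missed. In counts simulated for TPMCa against TPM, edgeR called 13.4% of the genes with a 4-fold difference.

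**Figure D2:**
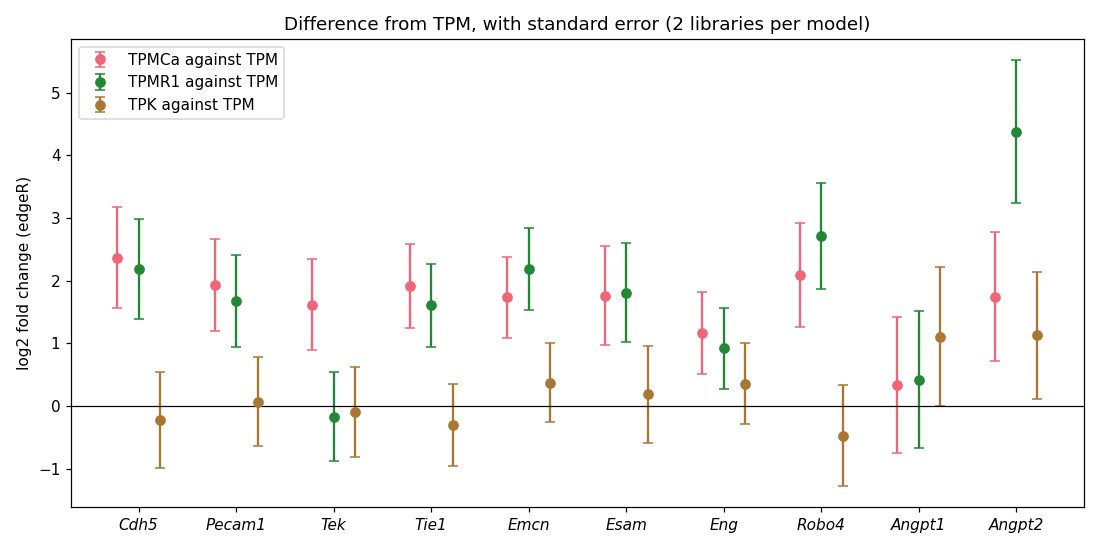
Log2 fold change of each gene against TPM from edgeR, with standard errors as bars, for TPMCa, TPMR1 and TPK, which share the TPM libraries. Angpt2 in TPMR1 is highest at 4.38, Tek in TPMR1 lies at -0.17, and the TPK values lie between -0.47 and 1.13.

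TPMR1 and TPMCa, which differ in the PI3K gene that was changed, were compared directly. Of the 10 members, 5 were above and 5 below 0, with a median log2 fold change of -0.06, against 0.01 over all genes. Neither edgeR nor DESeq2 called any member at an adjusted p under 0.05, where they called 0% and 4.88% of all genes. At an unadjusted p under 0.05 and 2-fold, Angpt2 was higher and Tek lower in TPMR1, while 10.5% of all genes passed in either direction. Angpt2 differed by 2.63 ± 1.05 (SE, edgeR adjusted p = 0.416) on the log2 scale, its groups overlapped, and without replicate 2 of TPMR1 the difference was 0.04. Tek differed by -1.78 ± 0.73 (SE, edgeR adjusted p = 0.420), and both TPMR1 libraries had less Tek than both TPMCa libraries.

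The study set TPM and TPK each against TPMCa and TPMR1 together, and these comparisons share the TPMCa and TPMR1 libraries. In TPM, the fitted levels of all 10 members were lower, with a median log2 fold change of -1.80 against -0.02 over all genes. With edgeR, 0 members passed an adjusted p of 0.05, which 8.89% of genes did. At the unadjusted 2-fold rule 7 were lower, all but Tek, Eng and Angpt1, against 6.54% of genes, and the same 7 did not overlap, as 15.5% of genes did. DESeq2 called 6 lower and 19.3% of all genes. In TPK the median was -1.67 against 0.00 over all genes. There edgeR called 0 members, against 14.4% of genes. At the unadjusted 2-fold rule 5 were lower, Cdh5, Pecam1, Tie1, Emcn and Robo4, against 9.71% of genes. The groups of 4 members did not overlap, as in 18.5% of genes, and DESeq2 called 5 members and 28% of all genes. A joint edgeR test for any difference among the 4 models called 0 members and 7.32% of genes, with 5 members at an unadjusted p under 0.05, and DESeq2 called 5 members and 29.7% of genes.

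Because the levels of most members overlapped between TPM and TPK, TPMCa and TPMR1 together were also set against TPM and TPK together, a comparison added after the values were seen. It tests on the same libraries the order already visible in them. In it edgeR called 4 members higher at an adjusted p under 0.05, and 6.64% of all genes. They were Cdh5 at a log2 fold change of 2.39 ± 0.57 (SE, edgeR adjusted p = 0.0323), Robo4 at 2.64 ± 0.60 (SE, edgeR adjusted p = 0.0284), Tie1 at 1.91 ± 0.47 (SE, edgeR adjusted p = 0.0365) and Emcn at 1.77 ± 0.45 (SE, edgeR adjusted p = 0.0398). The same 4 members, and 10% of all genes, had higher groups without overlap. DESeq2 called 7 members and 31.3% of all genes. The edgeR calls depended on single libraries, in fits for which the share of all genes called was not computed. Without either TPM library, either TPMCa library or replicate 2 of TPK, 0 members were called, with log2 fold changes of 2.08 to 2.52 for Cdh5 and 2.31 to 2.67 for Robo4. Without replicate 1 of TPK 3 were called, without replicate 1 of TPMR1 7, and without replicate 2 of TPMR1 2, Cdh5 at 1.66 and Robo4 at 1.87.

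In tumors of mixed cells, the members were also read relative to 20 other endothelial genes: Kdr, Flt1, Vwf, Erg, Sox7, Sox17, Sox18, Cldn5, Icam2, Egfl7, Mmrn2, Ecscr, Cd93, Clec14a, Myct1, Adgrl4, Rasip1, Plvap, Nos3 and Gpihbp1. In TPMCa against TPM, 18 of the 20 had a log2 fold change above 0, with a median of 1.37. The unadjusted 2-fold rule was passed by 6, all higher, against 7.28% of all genes higher. In TPMR1 against TPM 17 of the 20 were above 0, with a median of 1.14. There the rule was passed by 4 higher and 2 lower, against 7.53% of all genes higher and 12.6% lower. With edgeR, 0 passed an adjusted p of 0.05 in either comparison. DESeq2 called 3 of the 20 in TPMCa and 4 in TPMR1, near its shares of 16% and 17.9% over all genes. Flt1, a VEGF receptor, was at 13.7 and 15.7 CPM in TPM, 149 and 99.5 CPM in TPMCa, 29.5 and 186 CPM in TPMR1, and 8.17 and 6.72 CPM in TPK, with all TPMCa and TPMR1 libraries above the others, as for Cdh5. Vwf, which encodes the clotting factor stored with ANGPT2 in endothelial granules, went against Angpt2 in TPMR1. It was at 14.03 and 19.4 CPM in TPM, 15.1 and 7.29 CPM in TPMCa, 1.70 and 3.89 CPM in TPMR1, and 26.3 and 8.24 CPM in TPK. Both TPMR1 libraries had less Vwf than the 6 others, with a log2 fold change of -2.58 ± 0.77 (SE, edgeR adjusted p = 0.107) against TPM.

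Divided by the geometric mean of these 20 genes in the same library, each of the 8 endothelial members varied less than in CPM. Cdh5 ranged 2.96-fold in this ratio and 18.96-fold in CPM, Pecam1 2.06-fold and 9.13-fold, Tie1 2.22-fold and 11.4-fold, and Esam 2.01-fold and 8.79-fold. Robo4 still ranged 4.36-fold, with its highest ratios, 2.42 and 2.83, in TPMR1. Emcn had ratios of 2.13 and 1.53 in TPMR1, above the 6 others, and Eng had ratios of 4.77 and 4.99 in TPK, above the 6 others. Tek had its lowest ratio, 0.125, in replicate 2 of TPMR1 and its highest, 0.537, in replicate 2 of TPMCa. The divisor includes Vwf and Sox7, which were lower in both TPMR1 libraries than in both TPM libraries, while 17 of the 20 had a log2 fold change above 0. Sox7 was at 59.6 and 60.3 CPM in TPM and 1.12 and 14.4 CPM in TPMR1. Low values of such genes raise the ratios in TPMR1, and ratios without them were not computed. All these ratios were looked at after the levels were known and carry no test.

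**Figure D3:**
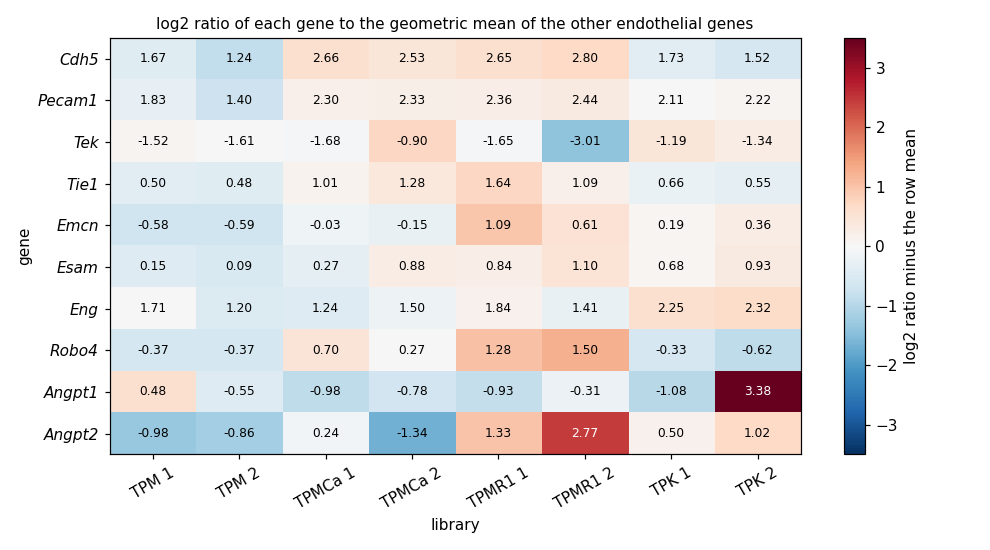
Log2 ratio of each gene to the geometric mean of 20 other endothelial genes in the same library, with the ratio written in each cell and the color giving its difference from the mean of the row. Angpt1 in replicate 2 of TPK at 3.38 and Angpt2 in replicate 2 of TPMR1 at 2.77 stand out from their rows, and Tek in replicate 2 of TPMR1 is lowest at -3.01.

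The balance of the angiopoietins differed among the libraries. The count of Angpt2 per count of Angpt1 was 0.364 and 0.807 in TPM, 2.33 and 0.677 in TPMCa, 4.78 and 8.47 in TPMR1, and 2.98 and 0.195 in TPK. TPMR1 had the 2 highest ratios, both above the 6 other libraries, and TPM, TPMCa and TPK overlapped. On the log2 scale the ratio was 2.67 ± 0.58 (SD, n = 2) in TPMR1, 0.33 ± 1.26 (SD, n = 2) in TPMCa, -0.39 ± 2.78 (SD, n = 2) in TPK and -0.88 ± 0.81 (SD, n = 2) in TPM. The TPK libraries lay far apart, and replicate 2, with the highest Angpt1 of all libraries, had the lowest ratio. Relative to the receptor, there were 7.88 and 54.7 counts of Angpt2 per count of Tek in TPMR1 and 0.733 to 5.14 in the 6 other libraries. Tie1 counts per Tek count were 9.77 and 17.1 in TPMR1 and 3.59 to 6.45 elsewhere. With 2 libraries against 2, an exact permutation test cannot go below a p of 0.333, and none was run on these ratios.

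**Figure D4:**
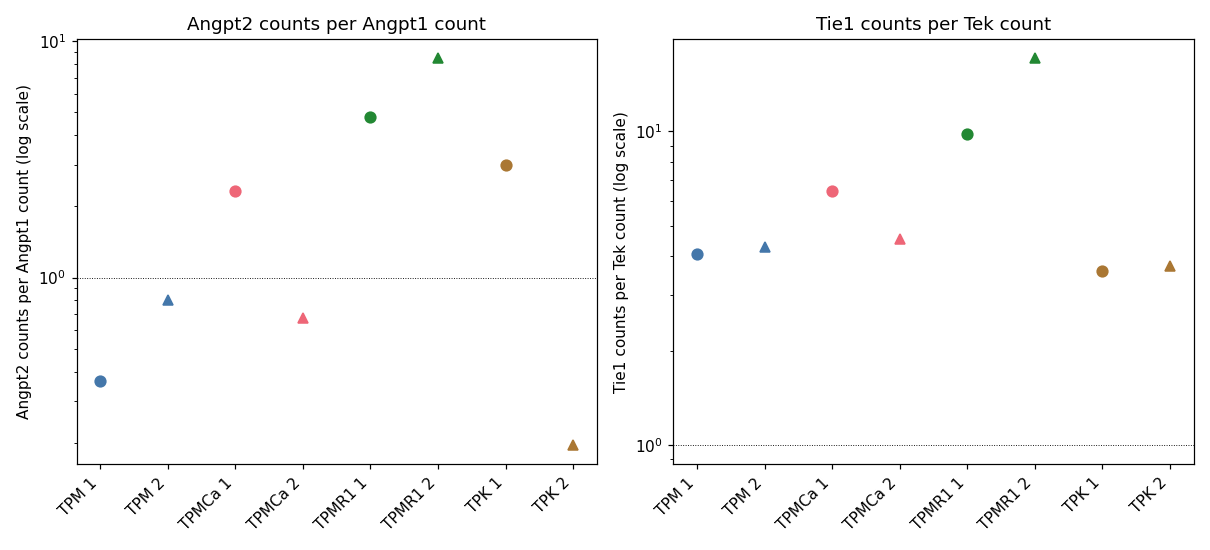
Counts of Angpt2 per count of Angpt1 and counts of Tie1 per count of Tek in each library, on log axes, with the dotted line at equal counts. TPMR1 has the highest values in both, 4.78 and 8.47 for the ligands and 9.77 and 17.1 for the receptors.

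Other genes of the pathway were taken from fixed lists, whose counts called are to be read against the shares over all genes. Against TPM, the unadjusted 2-fold rule was passed upward by 7.28% of all genes in TPMCa and 7.53% in TPMR1. Downward it was passed by 12.6% in TPMR1, and the downward share in TPMCa was not computed. At an adjusted p under 0.05, edgeR called 3.48% and 5.58% of all genes and DESeq2 16% and 17.9%. Of 6 genes of the TIE pathway, 4 were higher in TPMCa than in TPM at the unadjusted 2-fold rule and 3 in TPMR1, while adjusted p-values fell under 0.05 for 0 of them with edgeR and for 3 with DESeq2 in each. Angpt4, the third angiopoietin, was at 1.81 and 0.744 CPM in TPM, 11.5 and 24.6 CPM in TPMCa, 5.85 and 16.1 CPM in TPMR1, and 0.743 and 0.725 CPM in TPK. It was the one TIE pathway gene past an adjusted p of 0.05 from edgeR in TPM against TPMCa and TPMR1, at -3.46 ± 0.75 (SE, edgeR adjusted p = 0.0387), and in TPK against them, at -4.25 ± 0.80 (SE, edgeR adjusted p = 0.0184). The first call was lost on leaving out any of the TPM, TPMCa and TPK libraries, with values from -4.25 to -2.95, and the second without either TPK library, at -4.28 and -4.23. The first was also lost in a fit of only the models compared, at -3.46 (edgeR adjusted p = 0.0762). Ptprb, which encodes the phosphatase VE-PTP that acts on TEK, was at 15.1 and 17.3 CPM in TPM, 59.5 and 46.02 CPM in TPMCa, 28.3 and 139 CPM in TPMR1, and 18.7 and 11.1 CPM in TPK. Klf2, a flow-responsive transcription factor of endothelium that other cells also express, was at 20.5 and 23.2 CPM in TPM, 776 and 164 CPM in TPMCa, 64.4 and 213 CPM in TPMR1, and 65.7 and 22.1 CPM in TPK. Foxo1, a factor that TEK signaling restrains and that drives Angpt2, ranged only from 25.7 to 54.1 CPM. Svep1, an extracellular protein that binds TIE1, was at 12.8 and 4.18 CPM in TPM, 34.6 and 73.6 CPM in TPMCa, 6.54 and 10.01 CPM in TPMR1, and 36.0 and 9.43 CPM in TPK. Dok2, an adaptor of TEK also made by blood cells, was at 3.43 and 3.20 CPM in TPM, 4.75 and 34.6 CPM in TPMCa, 1.59 and 4.45 CPM in TPMR1, and 24.1 and 5.93 CPM in TPK.

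Around endoglin, 10 of 12 genes of the BMP9 pathway were tested, and their log2 fold changes against TPM had medians of 0.84 for TPMCa and -0.03 for TPMR1, with 0 past an adjusted p of 0.05 from edgeR. The unadjusted 2-fold rule was passed by 2 genes in TPMCa and 1 in TPMR1, all higher, against 7.28% and 7.53% of all genes. DESeq2 called 2 and 0, against 16% and 17.9% of all genes. The ligand genes Gdf2 and Bmp10 were at 0.823 CPM or less in every library. Acvrl1, the type I receptor that works with endoglin, was at 15.4 and 19.8 CPM in TPM, 32.2 and 41.7 CPM in TPMCa, 10.3 and 59.6 CPM in TPMR1, and 33.5 and 17.8 CPM in TPK. The target gene Id3 was at 38.95 and 36.3 CPM in TPM, 237 and 73.6 CPM in TPMCa, 13.6 and 269 CPM in TPMR1, and 61.7 and 12.8 CPM in TPK, so its TPMR1 libraries lay on either side of TPM. Id2 and Smad7 also lay above TPM in both TPMCa libraries, whereas Id1 and Smad6 overlapped TPM there. Id1 was at 62.1 and 51.1 CPM in TPM, 77.9 and 31.3 CPM in TPMCa, and 149.5 and 60.5 CPM in TPK. Of the 6 SLIT and ROBO genes, the ligand Slit3 was higher in TPMCa than in TPM at the unadjusted 2-fold rule. In TPMR1 Slit1 was higher and Slit2 lower at that rule. At an adjusted p under 0.05, edgeR called 0 of the 6 in each. DESeq2 called 0 and 1, against 16% and 17.9% of all genes. Unc5b, a receptor that ROBO4 binds, ranged from 11.96 CPM in replicate 1 of TPMR1 to 105 CPM in replicate 1 of TPMCa.

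Of 7 other junction genes, most of them shared with epithelium, 4 lay below TPM and 1 above it in TPMCa at the unadjusted 2-fold rule. In TPMR1 3 lay below TPM at that rule, against 12.6% of all genes. The higher gene was Jam3, an adhesion molecule, at 6.38 and 7.21 CPM in TPM, 56.6 and 50.5 CPM in TPMCa, 4.76 and 45.97 CPM in TPMR1, and 6.52 and 2.64 CPM in TPK. Jup and Ctnnd1 were lower in TPMCa and in TPMR1 than in TPM at an adjusted p under 0.05 from edgeR. Jup, which encodes plakoglobin, fell by 4.60 ± 0.45 (SE, edgeR adjusted p = 0.00767) on the log2 scale in TPMCa. Ctnnd1, which encodes p120-catenin, fell by 1.92 ± 0.27 (SE, edgeR adjusted p = 0.0203). The epithelial genes Cdh1 and Epcam were at 698 and 313 CPM or more in all TPM and TPK libraries and at 6.97 and 5.003 CPM or less in all TPMCa and TPMR1 libraries. Leaving out either TPMCa library ended the call of Jup, at -4.29 and -4.98, and that of Ctnnd1 was lost without replicate 1 of TPM, either TPMCa library or either TPK library, at -1.98 to -1.64. The part of cell makeup in the levels of Jup and Ctnnd1 was not tested.

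Subtypes of vessels and the cells around them were read from marker genes. Of 6 lymphatic genes, 5 were tested. At the unadjusted 2-fold rule 2 were higher in TPMCa and 2 in TPMR1 than in TPM, against 7.28% and 7.53% of all genes. At an adjusted p under 0.05, edgeR called 0. DESeq2 called 2 and 1, against 16% and 17.9% of all genes. Flt4, a VEGF receptor of lymphatic and some growing vessels, was at 9.33 and 11.96 CPM in TPM, 20.3 and 39.2 CPM in TPMCa, 22.1 and 26.7 CPM in TPMR1, and 8.06 and 5.87 CPM in TPK, so that all TPMCa and TPMR1 libraries were above the others. Ccl21a, a gene of lymphatic endothelium, had 0 counts in every library. Prox1, the lymphatic regulator, was at 28.0 CPM in replicate 1 of TPMR1 and 2.39 CPM or less elsewhere, and that library also had the highest Nr5a1 and Cyp11a1, genes of steroid-producing cells, at 753 and 3768 CPM. Lyve1, a gene of lymphatic endothelium and macrophages, was highest in replicate 2 of TPMCa at 57.0 CPM, where the macrophage list was highest too, at 3378 CPM. Of the 5 arterial genes, 3 had a log2 fold change above 0 and 1 was lower at the unadjusted 2-fold rule in TPMCa and likewise in TPMR1 against TPM. In TPMR1, 12.6% of all genes were lower at that rule. Efnb2 was lower in TPMCa and TPMR1 than in TPM and TPK, with values of 112 and 151 CPM in TPM, 55.9 and 36.2 CPM in TPMCa, 17.9 and 43.7 CPM in TPMR1, and 101 and 97.2 CPM in TPK. Efnb2 is also made by epithelium. Hey1, a NOTCH target, was at 13.7 and 17.3 CPM in TPM, 54.97 and 24.8 CPM in TPMCa, 1.51 and 9.45 CPM in TPMR1, and 65.2 and 63.2 CPM in TPK, higher than TPM in TPMCa and lower in TPMR1 without overlap. Of the 5 venous genes, 2 had a log2 fold change above 0 in TPMCa against TPM and 1 in TPMR1. At the unadjusted 2-fold rule 0 passed in TPMCa. In TPMR1 1 was lower at that rule, against 12.6% of all genes. DESeq2 called 0 and 1 of them, against 16% and 17.9% of all genes. Ackr1 was at 1.38 and 1.37 CPM in TPM and at 0.0774 and 0 CPM, below the floor, in TPMR1. Nr2f2, also a gene of stroma, ranged only from 41.5 to 64.1 CPM.

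Against TPM, the unadjusted 2-fold rule was passed by 2 of the 8 pericyte genes upward and 1 downward in TPMCa, and by 1 in each direction in TPMR1. Of all genes, 7.28% passed it upward in TPMCa and 7.53% in TPMR1, and 12.6% passed it downward in TPMR1. Notch3, the lower gene in both, was at 279.95 and 162 CPM in TPM, 57.9 and 39.2 CPM in TPMCa, 46.5 and 126 CPM in TPMR1, and 170.02 and 159 CPM in TPK. Abcc9 was at 7.59 and 10.9 CPM in TPM, 36.5 and 76.9 CPM in TPMCa, 44.5 and 85.3 CPM in TPMR1, and 10.7 and 7.78 CPM in TPK, with a log2 fold change of 2.81 ± 0.53 (SE, edgeR adjusted p = 0.0330) in TPMR1 against TPM and 2.61 ± 0.52 (SE, edgeR adjusted p = 0.05001) in TPMCa. The first call was lost without either TPM or either TPK library, at 2.59 to 3.09, and in a fit of only the models compared, at 2.82 (edgeR adjusted p = 0.104). Pdgfrb was at 77.9 and 57.1 CPM in TPM, 69.98 and 84.6 CPM in TPMCa, 27.7 and 176 CPM in TPMR1, and 58.1 and 15.3 CPM in TPK. As with the members, Pdgfrb was far lower in replicate 1 than in replicate 2 of TPMR1 and higher in replicate 1 than in replicate 2 of TPK. Of the 8 pericyte genes, 6 had a log2 fold change above 0 against TPM in TPMCa and 6 in TPMR1, with medians of 1.004 and 1.383. Notch3 and Ndufa4l2 were below 0 in both. These genes were also the highest of the list in TPM, at 279.95 and 167 CPM in replicate 1, so they weigh most in its sum there. The summed pericyte level was 414 to 562 CPM in TPM, 393 to 478 CPM in TPMCa, 162 to 658 CPM in TPMR1 and 233 to 521 CPM in TPK, with no list gene at 0. The fibroblast list of Col1a1, Col3a1, Pdgfra and Dcn was lowest in replicate 1 of TPMR1, at 658 CPM, against 1688 CPM or more in every other library. Their part in the lower endothelial levels of that library than of replicate 2 was not tested.

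**Figure D5:**
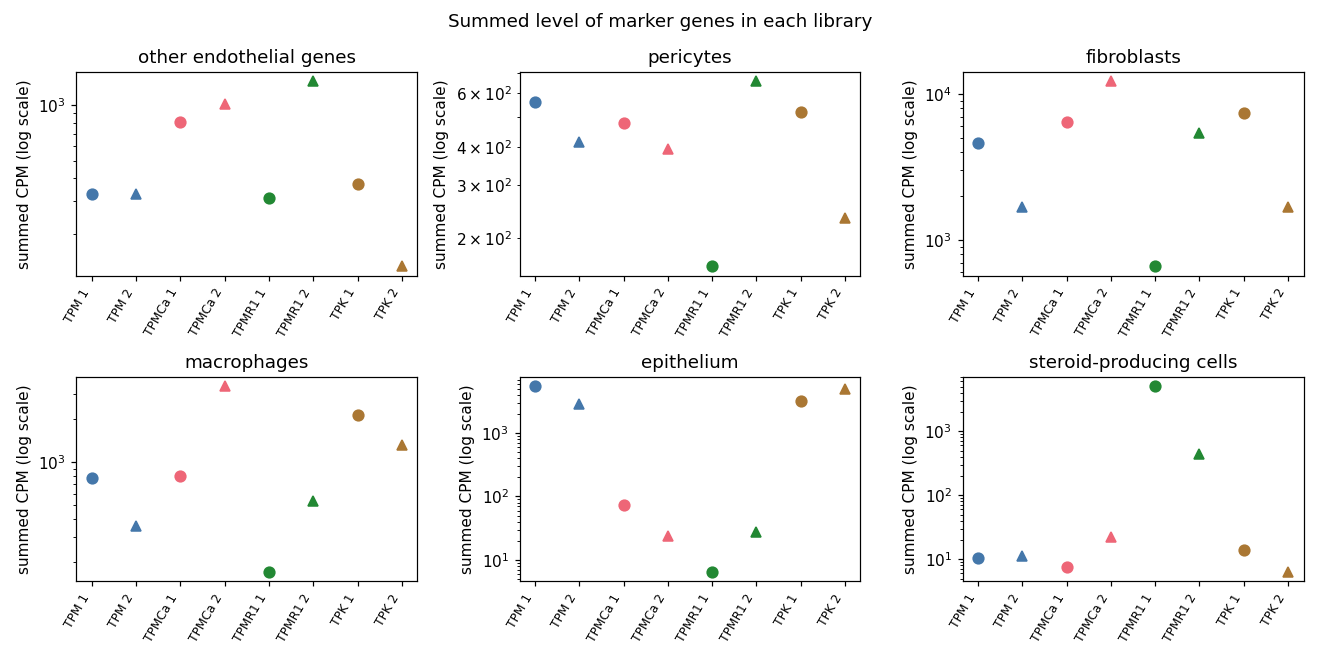
Summed CPM of 6 lists of marker genes in each library, on log axes with a range of their own. The epithelial list is at 73.3 CPM or less in TPMCa and TPMR1, the steroid-producing list is high in TPMR1 alone, and replicate 1 of TPMR1 is lowest for pericytes, fibroblasts, macrophages and epithelium.

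Over the 8 libraries, the log2 CPM values of the 8 endothelial members ran together, with Pearson correlations between 0.55 (Tek and Emcn) and 0.99 (Cdh5 and Tie1) and a median of 0.94 over 28 pairs. Without Tek the lowest was 0.82, for Eng and Robo4, whereas Tek reached at most 0.78, with Eng. Angpt2 correlated with the endothelial members at 0.08 to 0.85 and Angpt1 at -0.12 to 0.14. These values describe 8 libraries that come in 4 models and share their depth and cell makeup, and they carry no p. Among 10419 other genes with a mean log2 CPM of at least 3, those most like Cdh5 were Nid1, Col4a1, Nid2, Serpinh1 and Tie1, at 0.995 to 0.99. Nid1 and Nid2 encode nidogens and Col4a1 a type IV collagen chain, all of basement membrane, and Serpinh1 encodes a collagen chaperone. Nid2 was at 26.8 and 12.4 CPM in TPM, 225 and 287 CPM in TPMCa, 39.7 and 396 CPM in TPMR1, and 16.002 and 4.35 CPM in TPK. Those most like Angpt1 were Hspa13, Fam76b, Zfp433, Bbs9 and Trim3, at 0.96 to 0.88, each highest in replicate 2 of TPK. Those most like Angpt2 were Ptk2, H2afx, Med25, Ino80e and Pibf1, at 0.96 to 0.91, each highest in replicate 2 of TPMR1.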

How the data were processed

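Bulk RNA of 8 libraries, 2 per model, was analyzed, with groups taken from the sample titles. The column headings name TPM by a slightly longer code, and 0 columns could not be assigned. Reads, trimmed by the sequencing provider, were aligned by the authors with STAR to mm10. They deposited whole-number counts for 24419 gene symbols, and the counter and annotation are not given in the sources used here. Their second table, counts divided by one DESeq2 size factor per library, was not used. Results on some engineered genes are not reported here.

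Counts of all 8 libraries entered one quasi-likelihood fit of edgeR 4.0.16 (R 4.3.3) with TMM factors and filterByExpr, which kept 15875 genes, and p-values were adjusted over them by the Benjamini-Hochberg method. Standard errors were taken from the fold change and the F statistic. DESeq2 1.42.0, other scalings and filters, a replicate term, fits of only the models compared and leaving out each library were alternatives. Log2 CPM used a prior count of 2, and levels were divided by union exon length of GENCODE M21. Named genes were the 10 members, the genes of the lists, and for Cdh5, Angpt1 and Angpt2 the 5 genes with the highest correlation. Members and lists were chosen with earlier results of these data known. In counts simulated for TPMCa against TPM over 15875 genes, edgeR called 13.4% of the genes with a simulated 4-fold difference, 70.1% at 16-fold and 87.9% at 64-fold, and 5 unchanged genes. Replicate numbers showed no sign of pairing the libraries, as correlations of same-numbered deviations between models lay between -0.07 and -0.01. Such correlations cannot show that no libraries were paired. Figures were drawn with matplotlib 3.10.9.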

Additional observations from a re-analysis of the deposited data

How the results depend on the processing

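Counts of members past the adjusted p of 0.05 rose with DESeq2, from 0 to 2 for TPMCa against TPM, 4 for TPMR1 against TPM, 6 and 5 for TPM and TPK against TPMCa and TPMR1, and 5 for any difference among models, and from 4 to 7 in the added comparison. With no filter on low counts 1 was called in TPK against TPMCa and TPMR1, and with only the models compared 5 in TPMCa against TPM, where 9 passed the unadjusted 2-fold rule. That rule gave 1 member for TPMR1 against TPMCa with library size alone and 0 with only those models. The replicate block, for numbers that showed no sign of pairing, gave 3 members at that rule for TPMCa and for TPMR1 against TPM. It gave 3 for TPK against TPMCa and TPMR1, 0 for TPMR1 against TPMCa, and 0 at an adjusted p in the added comparison. The block uses up a residual degree of freedom. With it, Angpt4 in TPM against TPMCa and TPMR1 also lost its call. Apart from DESeq2 at an adjusted p, the share of all genes called was not computed for these settings or for the fits below. A change in members called therefore cannot be told from a change over all genes.

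Leaving out 1 library, which leaves a model with a lone library taken to vary like the others, moved the members called at an adjusted p between 0 and 1 for TPMCa against TPM, 0 and 3 for TPMR1 against TPM, 0 and 6 for TPM against TPMCa and TPMR1, 0 and 7 for TPK against them, 0 and 7 in the added comparison and 0 and 3 for any difference. At the unadjusted rule the ranges were 0 to 7, 1 to 8, 0 to 8, 0 to 7 and, for TPMR1 against TPMCa, 0 to 1. Without replicate 1 of TPMR1 every adjusted count above 0 was at its highest. At the unadjusted rule, TPMCa against TPM had 0 without either TPM library or replicate 2 of TPMCa and 2 without its replicate 1, TPMR1 against TPM had 1 without either TPM library or replicate 2 of TPMR1 and 3 without replicate 1 of TPMCa, TPM against TPMCa and TPMR1 had 0 without either TPM library and 4 without replicate 2 of TPMCa, and TPK against them had 0 without replicate 2 of TPK and 3 without either TPMCa library or replicate 2 of TPMR1. The log2 fold change of Tek in TPMR1 against TPM went from -0.54 to 0.13, that of Cdh5 in TPK against TPM from -1.35 to 0.40 and that of Robo4 there from -1.66 to 0.17. The causes were not tested. DESeq2 size factors within edgeR and the filter of 10 counts in 6 libraries gave the same counts of members as reported. Abcc9 in TPMCa, just above the threshold, passed it with those size factors and with no filter. Adding 5 counts to the angiopoietin ratio moved it by less than its SD in each model. Levels by the longest transcript moved the mean of Pecam1 over the libraries to 25.1 from 13.9 FPKM, and so above Cdh5. Every member had 28 counts or more in every library.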
